A study of Mus musculus with 4 samples.

Results

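Neutrophils were taken from 4 single-cell RNA sequencing libraries of muscle in a mouse model of heterotopic ossification (HO), the formation of bone in soft tissue. A barcode (1 droplet called as a cell) was gated as a neutrophil when it had at least 20 UMIs of *S100a8* and *S100a9* together and at least 2 of *Csf3r*, *Cxcr2*, *Ly6g* and *Retnlg* together. It also had to have at most 2 of *Mpo*, *Elane* and *Prtn3* together, at most 2 of *C1qa*, *C1qb* and *C1qc* together, and at most 10% of its UMIs from mitochondrial genes. A UMI (unique molecular identifier) counts 1 captured transcript. This gate found 1118 neutrophils among the 59824 barcodes that passed the mitochondrial limit, with 87 in Uninjured, 533 at 1 day post injury (dpi), 352 at 3 dpi and 146 at 7 dpi. The members were thus chosen by measured UMIs of these genes, and the levels of the gate genes are a description.

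All 4 libraries came from *Nse-Bmp4* mice on C57BL/6, aged 6 to 8 weeks, in which a rat neuron-specific enolase promoter drives a murine *Bmp4* cDNA, so the uninjured control carried the transgene too. Uninjured was tibial muscle without injury, and the 1, 3 and 7 dpi libraries were tibial muscle after an injection of cardiotoxin, a snake venom toxin that kills muscle fibres. The study asked how the cells of the early lesion, neutrophils included, signal to mesenchymal stem cells. Each library pooled 3 tibial muscles digested with collagenase and was the only one of its time point, so time point and library cannot be told apart and no test between time points was possible. The intervals given are 95% intervals that cover counting error only, and "higher" and "lower" describe these 4 libraries.

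Neutrophils are short-lived phagocytes that are made in bone marrow and enter injured tissue from blood. While they mature they fill several kinds of granules in turn, first with proteases such as myeloperoxidase and elastase, then with lactoferrin, cathelicidin and lipocalin, and later with gelatinase, and the transcripts of each set fade once its granules are made. In tissue, neutrophils make interleukin 1, chemokines that attract further leukocytes, and the oxidants of the NADPH oxidase.

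The libraries had 11827, 10853, 14118 and 23026 barcodes that passed the mitochondrial limit, in the order Uninjured, 1, 3 and 7 dpi, which is kept for every set of 4 values below. Neutrophils held 439700, 3594449, 1669370 and 549222 UMIs, with a median of 2723, 4724, 2341 and 1435 UMIs per cell. All barcodes had a median of 8629, 5561.5, 4214 and 3083 UMIs. Neutrophils were therefore shallower than the average barcode of their library, and those at 7 dpi were the shallowest. Levels are given in CPM, the UMIs of a gene per 1000000 UMIs of the summed neutrophils of a library. These counts tag transcript ends and were not divided by gene length, so levels were compared between libraries and not between genes. Because CPM is a share of all UMIs, fewer expressing cells and less RNA per cell cannot be told apart in a summed level.

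The 6 marker genes of the label are the genes that the gate required, so their levels describe the gated cells and do not check the label. *S100a9* and *S100a8*, whose products form the calprotectin dimer of the neutrophil cytosol, were the 2 most abundant genes in Uninjured and at 1 and 3 dpi. *S100a9* gave 9.33, 9.54, 6.35 and 3.03% of the neutrophil UMIs. The *S100a8* and *S100a9* UMIs together had a median of 316, 736, 258.5 and 98 per cell, far above the limit of 20 in Uninjured and at 1 and 3 dpi and nearer to it at 7 dpi. Of the UMIs that each whole library held for *Ly6g*, a surface marker of mouse neutrophils, 96.6, 92.0, 94.2 and 89.6% lay in the gated cells. For *Retnlg*, which encodes a resistin-like protein of neutrophils, the shares were 96.9, 95.3, 94.2 and 87.1%. *Csf3r*, the receptor for G-CSF, was spread over more cells, with 73.3, 48.4, 38.4 and 58.8% of its UMIs in the gate.

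Some barcodes lay at the limits of the gate. Just inside, 1, 10, 10 and 13 neutrophils had 20 to 24 UMIs of *S100a8* and *S100a9*, and just outside, 1, 5, 11 and 11 barcodes that met all other limits had 15 to 19. Exactly 2 UMIs of the second set of genes were found in 3, 8, 17 and 25 neutrophils, and 2, 13, 10 and 32 barcodes just outside had 1. Exactly 2 progenitor UMIs were found in 0, 11, 6 and 1 neutrophils, and 0, 3, 1 and 0 barcodes just outside had 3. The progenitor limit alone kept out 2, 127, 85 and 0 barcodes, and the minimum of *Csf3r*, *Cxcr2*, *Ly6g* and *Retnlg* alone kept out 3, 19, 26 and 82. The *C1q* limit kept out 1, 7, 4 and 2 and the mitochondrial limit 0, 5, 2 and 2. The barcodes kept out for granulocyte progenitor transcripts were thus mostly at 1 and 3 dpi, and those below the minimum of the second set of genes mostly at 7 dpi.

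RNA of other cells in the gated droplets was measured before any comparison. Stromal genes (collagens and other mesenchymal markers) gave more than 1% of the UMIs in 8, 34, 45 and 53 neutrophils, that is 9.20, 6.38, 12.8 and 36.3% of them. These droplets were deep, with a median of 15208, 12029.5, 7280 and 3727 UMIs, and held 31.8, 14.0, 37.5 and 67.7% of all neutrophil UMIs. The mesenchymal marker list summed to 15929, 4054, 13887 and 29988 CPM in all gated cells, against 48822, 15478, 26363 and 45937 CPM outside the gate. At 7 dpi *Col1a1*, *Sparc* and *Col1a2* were among the 10 most abundant genes of the gated cells, and the cartilage marker list stood at 4.55, 0.835, 0.599 and 3314 CPM. *Ptprc*, the pan-leukocyte gene CD45, had a UMI in 90.8, 96.6, 80.7 and 58.2% of the gated cells. Of the gated cells, 0, 1, 19 and 35 had no *Ptprc* UMI and at least 10 UMIs of *Col1a1*, *Col3a1* and *Dcn* together. Whether these droplets held a neutrophil was not tested.

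Every result was therefore also computed in the 79, 499, 307 and 93 neutrophils with at most 1% stromal UMIs, called low-stroma neutrophils below, a choice made after the data had been seen. They held 299969, 3090801, 1042978 and 177555 UMIs, and the mesenchymal list in them stood at 717, 588, 1041 and 2613 CPM. The cartilage list was at 6.67, 0, 0 and 377 CPM in them. The 1% limit was set on the genes of these lists, so their lower sums in this set follow from the choice. Both sums were still highest at 7 dpi. The part of stromal RNA in the remaining differences was not tested.

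**Figure D1:**
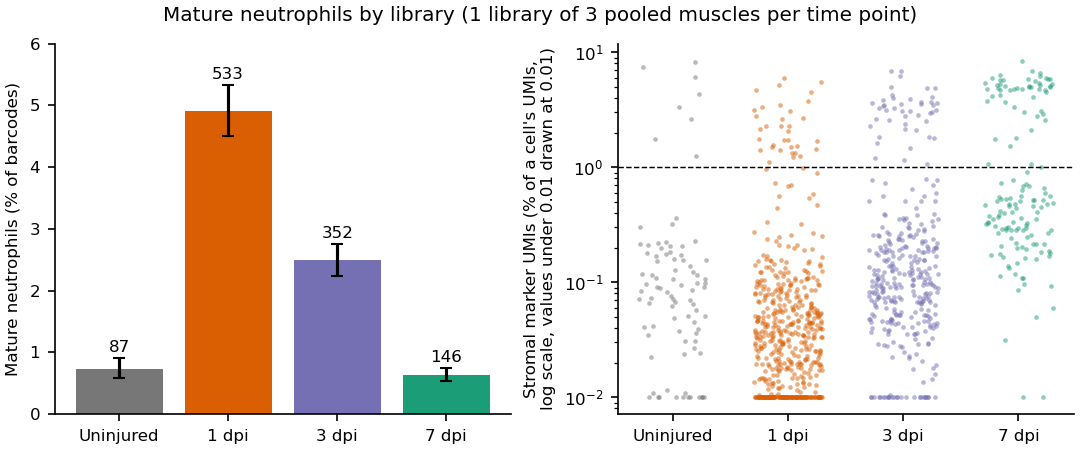
Left, gated neutrophils as a percent of the barcodes that passed the mitochondrial limit in each of the 4 libraries, with exact binomial 95% intervals that cover counting error only and the number of cells above each bar. Right, the percent of each neutrophil's UMIs from stromal genes on a log axis (values under 0.01 are drawn at 0.01), with the 1% limit dashed: 36.3% of the 7 dpi cells lie above it, against 6.38% at 1 dpi.

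Cells of bone marrow type varied between the libraries along with the neutrophils. Granulocyte progenitors, here barcodes with at least 3 UMIs of the primary granule genes *Mpo*, *Elane* and *Prtn3*, numbered 4, 336, 391 and 4, or 0.0338, 3.10, 2.77 and 0.0174% of barcodes. Barcodes with at least 2 UMIs of the B cell progenitor genes *Vpreb1*, *Igll1* and *Rag1* numbered 2, 145, 90 and 3. Both counts were lower in Uninjured and at 7 dpi than in the other two libraries. Whether bone marrow was part of the dissected tissue is not given in the sources used here, so the neutrophil shares and the granule and cell cycle values at 1 and 3 dpi cannot be assigned to muscle alone. The part of marrow cells in them was not tested. Pairs of libraries shared between 30 and 95 barcode sequences, and 0 of these were gated as neutrophils in both.

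Neutrophils made up 0.736% of barcodes in Uninjured (95% interval 0.590 to 0.907), 4.91% at 1 dpi (4.51 to 5.33), 2.49% at 3 dpi (2.24 to 2.76) and 0.634% at 7 dpi (0.536 to 0.745). The share was highest at 1 dpi and the intervals of Uninjured and 7 dpi overlapped. With the cells limited to low-stroma neutrophils the shares were 0.668% (0.529 to 0.832), 4.60% (4.21 to 5.01), 2.17% (1.94 to 2.43) and 0.404% (0.326 to 0.495), and the intervals of Uninjured and 7 dpi no longer overlapped. Among gated myeloid cells, which also counted granulocyte progenitors, monocytes and *C1q* macrophages, neutrophils were 17.5, 21.5, 15.4 and 25%. With low-stroma neutrophils alone the shares of myeloid cells were 16.2, 20.4, 13.7 and 17.5%. The 7 dpi library thus had the highest share within myeloid cells only when droplets with stromal RNA were kept, and 1 dpi had it otherwise. NK and T cells, which should lack both genes, also held UMIs of *S100a8* and *S100a9*. Together these stood at 4.61, 198, 66.7 and 19.9 CPM there, and whether this was free RNA was not tested.

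The secondary granule genes separated 7 dpi from 3 dpi. The 10 genes of the list summed to 51551, 80314, 63270 and 10484 CPM in all gated neutrophils and to 60953, 89361, 93473 and 24038 CPM in the low-stroma set. The sum was highest at 1 and 3 dpi and lowest at 7 dpi in both sets. Between 3 and 7 dpi, 10 of 10 genes were at least 2-fold lower in both sets, with the sum 6.03-fold lower (5.88 to 6.20) in all gated cells and 3.89-fold lower (3.77 to 4.01) in the low-stroma set. Over all 5603 genes with at least 50 UMIs in these libraries, 13% were at least 2-fold lower and 8.00% at least 2-fold higher. In the low-stroma set 18.5% of 3135 genes were lower and 8.42% higher. The median log2 ratio of the list was -2.12 in the low-stroma set, against -0.16 over all genes.

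*Ngp* (chr9:110419747-110423012, + strand, GRCm38), which encodes neutrophilic granule protein, was at 19635, 29197, 26002 and 6421 CPM in low-stroma neutrophils. *Camp* (chr9:109847379-109849617, - strand), the gene of the antimicrobial peptide cathelicidin, was at 16268, 26080, 31676 and 6437 CPM. *Ltf* (chr9:111019271-111042767, + strand), the gene of lactoferrin, an iron-binding protein, was at 3197, 7995, 8009 and 1228 CPM. All 3 were highest at 1 or 3 dpi and lowest at 7 dpi. From 3 to 7 dpi *Ngp* was 4.05-fold lower (3.82 to 4.30), *Camp* 4.92-fold lower (4.64 to 5.22) and *Ltf* 6.52-fold lower (5.70 to 7.5) in the low-stroma set.

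Other members of the list had the same order of libraries in part. *Lcn2*, the siderophore-binding lipocalin, was at 9048, 9487, 9738 and 3368 CPM, level over the first 3 libraries and 2.89-fold lower (2.66 to 3.14) at 7 dpi. *Cd177*, a surface glycoprotein of neutrophils, was at 367, 1092, 1059 and 158 CPM and 6.71-fold lower (4.62 to 10.1) at 7 dpi. *Mmp8*, neutrophil collagenase, was at 853, 1713, 1721 and 507 CPM. From Uninjured to 1 dpi, 5 of 10 genes of the list were at least 2-fold higher, namely *Ltf*, *Chil3*, *Cd177*, *Mmp8* and *Olfm4*, and *Ltf* was 2.50-fold higher (2.34 to 2.67). *Chil3*, which monocytes also express, was 0.953 times its Uninjured level at 1 dpi when cells with UMIs of other types were left out. The background for that step was 26.8% of 5607 genes higher and 3.14% lower in the low-stroma set, and 21.7% of 6634 higher and 6.01% lower in all gated cells. The median gene was itself higher at 1 dpi, with a log2 ratio of 0.43 in the low-stroma set and 0.31 in all gated cells, and every ratio at this step is to be read against that shift.

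Promoter windows of granule genes are shown because these genes moved together between libraries. C/EBP factors are known regulators of secondary granule genes, and the motif searched was TTGCNNAA on both strands (its reverse complement is TTNNGCAA). It occurred in the promoters of 5 of 10 list genes (*Anxa1*, *Lcn2*, *Ltf*, *Mmp8* and *Ngp*), taken from 250 bases before to 50 after the start, and in 10.8% of all 32851 promoters of the same length. The windows of 3 of them follow as RefSeq gives them on GRCm38.p6, + strand, 5′ to 3′, with the match in capitals. A match is a description of the letters and not of a bound site.
Ngp, chr9:110419658-110419807: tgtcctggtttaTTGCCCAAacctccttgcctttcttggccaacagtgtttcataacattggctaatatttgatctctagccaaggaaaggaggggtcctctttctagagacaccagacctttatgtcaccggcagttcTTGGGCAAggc
Ltf, chr9:111019142-111019291: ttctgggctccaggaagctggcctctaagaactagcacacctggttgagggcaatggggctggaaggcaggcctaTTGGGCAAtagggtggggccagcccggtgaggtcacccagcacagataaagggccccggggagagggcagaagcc
Mmp8, chr9:7558279-7558428: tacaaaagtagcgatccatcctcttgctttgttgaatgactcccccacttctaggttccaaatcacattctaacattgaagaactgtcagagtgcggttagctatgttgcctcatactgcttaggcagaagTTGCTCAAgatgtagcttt

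Per cell, the granule transcripts ranged from 0 to more than 100 UMIs of 1000, with cells at every level between. Each neutrophil was thinned at random to 1000 UMIs, and its *Ngp*, *Camp* and *Ltf* UMIs were summed, which left out the 3, 12, 28 and 16 low-stroma cells with fewer UMIs. The share of low-stroma cells with 0 granule UMIs was 65.8% in Uninjured (54.0 to 76.3), 33.7% at 1 dpi (29.5 to 38.1), 30.1% at 3 dpi (24.8 to 35.9) and 89.6% at 7 dpi (80.6 to 95.4). Cells with 5 or more granule UMIs were 26.3, 51.5, 59.5 and 7.79%, that is 20, 251, 166 and 6 cells, and those with 1 to 4 were 7.89, 14.8, 10.4 and 2.60%. At 1 dpi 11.3% of the cells had 5 to 24, 19.3% had 25 to 99 and 20.9% had 100 or more. Cells with 0 granule UMIs of 1000 were thus the majority in Uninjured and at 7 dpi and the minority at 1 and 3 dpi. With all gated cells kept the share with 0 was 64.3, 34.5, 31.3 and 85.9%.

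A count of 0 in 1000 UMIs does not show that a cell lacked these transcripts. *Ngp* alone had a UMI in 32.9, 63.9, 68.5 and 10.4% of low-stroma neutrophils after thinning and in 31.6, 71.9, 68.7 and 8.60% without it, so that at 1 dpi more cells held *Ngp* at full depth. In NK and T cells, which should lack it, the shares were 0.190, 3.07, 1.01 and 0.185% after thinning and 0.379, 11.6, 3.68 and 0.360% without. Median depths were 2524, 4531, 2148 and 1289 UMIs in the neutrophils and 3725.5, 4524, 2901.5 and 2354.5 UMIs in the NK and T cells. The *Ngp* shares of neutrophils lay above this background in each library, and the background was highest at 1 dpi.

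**Figure D2:**
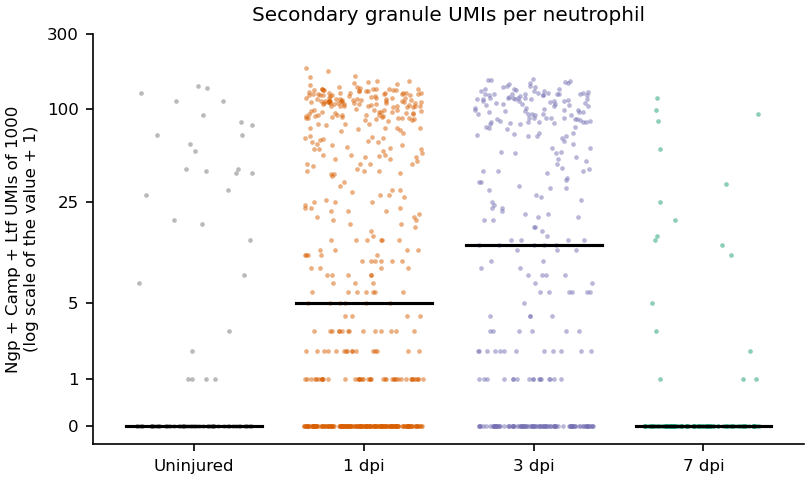
*Ngp*, *Camp* and *Ltf* UMIs summed per neutrophil after thinning to 1000 UMIs, drawn as value + 1 on a log axis, for all gated cells of each library, with bars at the medians of 0, 5, 13 and 0. Each library holds cells at 0 and cells with 5 or more granule UMIs, and 85.9% of the 7 dpi cells are at 0.

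The low-stroma cells with 0 and with 5 or more granule UMIs differed in depth before thinning, with a median of 1999, 2868.5, 1529 and 1337 UMIs against 6961, 7197, 3477.5 and 5083.5. The levels below are descriptions of cells split by a measured value, over the UMIs of each bin before thinning, and at 7 dpi the bin with 5 or more rests on 6 cells. *Il1b*, the gene of the cytokine interleukin 1 beta, was at 13604, 11034, 10113 and 8388 CPM in cells with 0 granule UMIs and at 282, 546, 580 and 166 CPM in cells with 5 or more. It was many times higher in the cells with 0 granule UMIs in every library.

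Other genes of the secondary granule list and an oxidase gene lay on the opposite side. *Lcn2* was at 1118, 1688, 1365 and 723 CPM in cells with 0 granule UMIs and at 17753, 13655, 13723 and 16295 CPM in those with 5 or more. *Chil3*, a chitinase-like lectin, was at 7.5, 132, 17.3 and 0 CPM against 3122, 5543, 6102 and 5210 CPM. *Cybb*, the catalytic subunit of the NADPH oxidase, was at 97.5, 177, 253 and 70 CPM against 1090, 2618, 2427 and 1361 CPM. All 3 were higher in the cells with 5 or more granule UMIs in each library. *Mmp9*, which encodes gelatinase B of later granules, was at 1148, 1858, 1411 and 972 CPM against 1468, 1686, 1635 and 962 CPM, close in both kinds of cells.

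*Retnlg*, which the gate used, was highest in cells between these ends. It was at 5980, 16212, 15216 and 5341 CPM in cells with 0 granule UMIs and at 37066, 28158, 19555 and 35884 CPM in those with 1 to 4. In cells with 5 to 24 it was at 54847, 40727, 36210 and 36350 CPM, and in cells with 100 or more at 6310, 2402, 3474 and 13304 CPM. It was thus higher with 1 to 24 granule UMIs than with 0, and lower with 100 or more than with 1 to 24, in each library, but these bins were small outside 1 and 3 dpi. The bins with 1 to 4, 5 to 24 and 100 or more held 6, 4 and 5 cells in Uninjured and 2, 1 and 1 at 7 dpi.

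**Figure D3:**
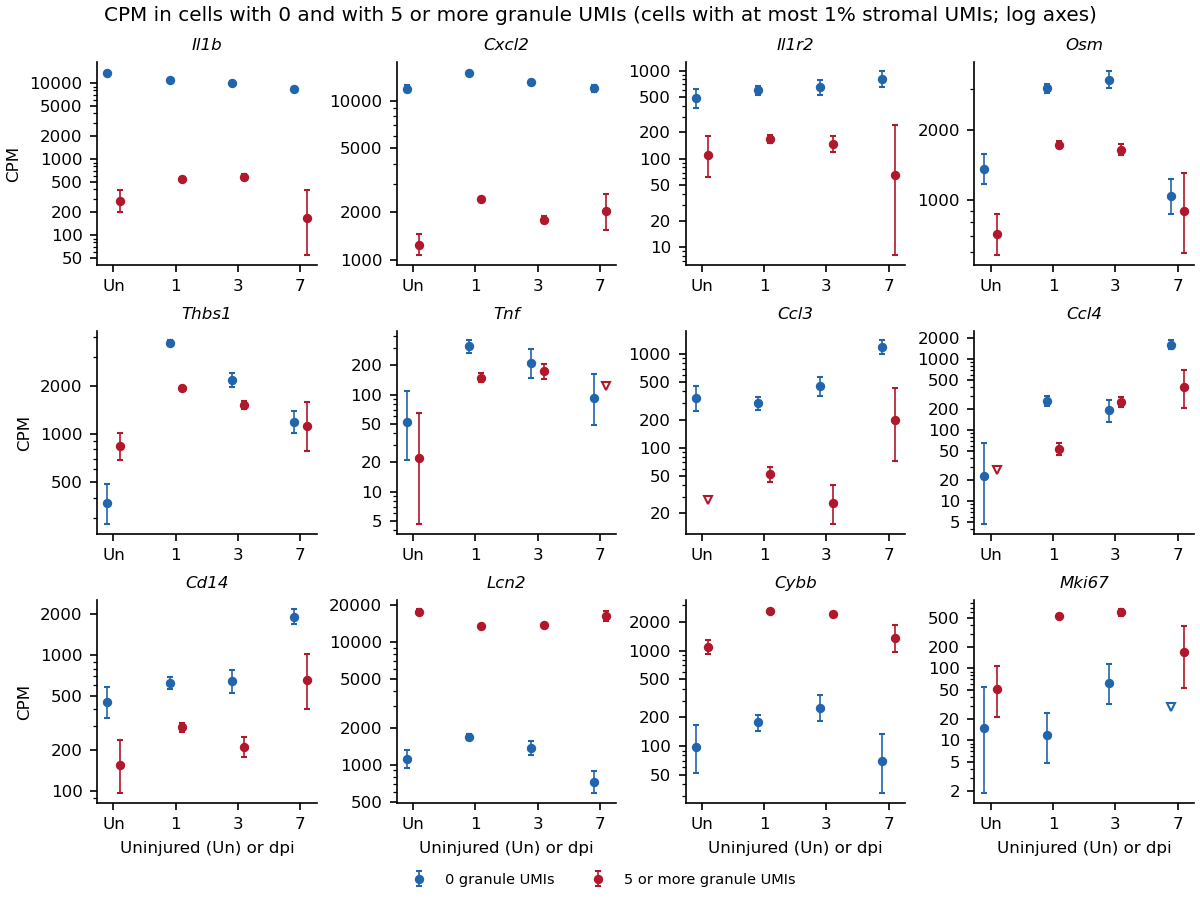
CPM on log axes for 12 genes in low-stroma neutrophils with 0 (blue) and with 5 or more (red) granule UMIs of 1000, by library, with Poisson 95% intervals that cover counting error only; open triangles are upper limits where 0 UMIs were found. *Il1b* and *Cxcl2* lie higher in the blue points and *Lcn2* and *Cybb* higher in the red points of all 4 libraries. The CPM of these bins leave *Ngp*, *Camp* and *Ltf* UMIs out of the total.

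In the low-stroma set, cell cycle genes were mostly present in cells with granule UMIs. The 18 genes of the list summed to 2010, 4770, 5284 and 1408 CPM in low-stroma neutrophils. From Uninjured to 1 dpi the sum was 2.37-fold higher (2.19 to 2.58) with 15 of 18 genes at least 2-fold higher, and from 3 to 7 dpi it was 3.75-fold lower (3.31 to 4.28) with 12 of 13 genes compared lower, against 26.8% of all genes higher at the first step and 18.5% lower at the last. Among all gated cells 18 of 18 genes were at least 2-fold higher at the first of these steps, against 21.7% of all genes. At the last step 12 of 18 were at least 2-fold lower in all gated cells, against 13% of all genes. *Mki67*, a gene of dividing cells, was at 30, 350, 424 and 28.2 CPM. *Stmn1*, a microtubule regulator, was at 33.3, 221, 279 and 84.5 CPM, and *Hist1h2ap*, a replication-dependent histone gene, at 117, 766, 617 and 130 CPM. In this set these genes were high at 1 and 3 dpi and low in Uninjured and at 7 dpi. When cells with UMIs of other types were left out, their ratios at 1 dpi against Uninjured were 0.444, 0.666 and 0.444. For *Mki67* and *Stmn1* these ratios rest on few Uninjured UMIs. Before that step, all gated Uninjured cells with 0 granule UMIs held 2 and 4 UMIs of these genes. Those with 5 or more held 7 and 6.

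By cell, 1.32, 10.3, 12.5 and 1.30% of the low-stroma neutrophils had at least 2 cell cycle UMIs of 1000, that is 1, 50, 35 and 1 cells, whose median granule count was 136, 112, 117 and 93 UMIs. Among all gated cells at 7 dpi, 10 cells (7.81%) met this limit, with a median granule count of 0. *Mki67* was at 15, 11.8, 63.4 and 0 CPM in the cells with 0 granule UMIs and at 51.9, 527, 598 and 166 CPM in those with 5 or more. Dividing cells are not mature neutrophils, so the name mature went against the data for these cells, and all members are called gated neutrophils or neutrophils here. Granulocyte progenitors, kept out by the gate, had *Mki67* at 228, 394, 354 and 0 CPM and *Camp* at 13423, 10335, 8189 and 0 CPM. The cell cycle result depended on which droplets were kept. When cells with at least 2 UMIs of *Ly6c2*, of collagens, or of T, NK or B cell genes were left out, 45, 185, 121 and 41 neutrophils remained and the sum at 1 dpi was 0.932 times that of Uninjured. Of all gated cells, 27, 310, 162 and 11 met the *Ly6c2* part of this limit and 25, 98, 135 and 101 the collagen part. Whether the *Ly6c2* UMIs came from other cells was not tested.

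Cytokine and chemokine genes had another order of libraries. The 18 genes summed to 15148, 13209, 10676 and 23925 CPM in low-stroma neutrophils and to 11806, 12118, 7990 and 9812 CPM in all gated cells. In the low-stroma set the sum was highest at 7 dpi, 2.24-fold higher (2.16 to 2.32) than at 3 dpi with 11 of 14 genes compared at least 2-fold higher and 1, *Tnf*, lower, against 8.42% and 18.5% of all genes. In all gated cells it was 1.23-fold higher (1.19 to 1.27). There 3 of 14 genes were at least 2-fold higher (*Cxcl3*, *Ccl3* and *Ccl4*), against 8.00% of all genes. In the same cells 2 of 14 were at least 2-fold lower (*Tnf* and *Osm*), against 13% of all genes. When cells with at least 2 UMIs of *Ly6c2*, of collagens, or of T, NK or B cell genes were left out instead, the ratio was 1.24, although this too removed the droplets with collagen UMIs. The size of this difference thus depended on which droplets were kept, and the cause was not tested. Macrophages express several of these genes too. The 11 macrophage markers summed to 217, 153, 186 and 586 CPM in low-stroma neutrophils, highest at 7 dpi as well, with *Apoe* the highest (372 CPM there) and 3 of the 11 at 0 UMIs at 7 dpi. They summed to 658, 1452, 1248 and 492 CPM outside the gate. *C1qa*, *C1qb* and *C1qc*, which the gate limited, were at 5.63 CPM each at 7 dpi. The part of macrophage RNA in the cytokine values was not tested.

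*Il1b* (chr2:129364570-129371139, - strand) was at 6557, 3306, 2648 and 7254 CPM in low-stroma neutrophils. It was 1.98-fold lower (1.89 to 2.08) at 1 dpi than in Uninjured and 2.74-fold higher (2.56 to 2.93) at 7 than at 3 dpi. In all gated cells *Il1b* was also higher at 7 than at 3 dpi, but by less than 2-fold. In the cells with 0 granule UMIs alone its levels were 13604 (12985 to 14245), 11034 (10768 to 11304), 10113 (9646 to 10598) and 8388 CPM (7895 to 8904). The higher summed level at 7 than at 3 dpi was thus not present within those cells, where 7 dpi was the lowest library. After thinning, 76.3, 55.4, 47.7 and 80.5% of low-stroma neutrophils had an *Il1b* UMI, against 0.759, 1.90, 1.86 and 1.20% of NK and T cells, which should lack it. Without thinning the shares were 79.7, 61.7, 56.0 and 90.3% against 1.52, 9.19, 4.36 and 2.88%, at median depths of 2524, 4531, 2148 and 1289 UMIs for neutrophils and 3725.5, 4524, 2901.5 and 2354.5 UMIs for NK and T cells.

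*Cxcl2* (chr5:90903871-90905938, + strand), a chemokine that attracts neutrophils through CXCR2, was at 5974, 5837, 4457 and 10667 CPM in low-stroma neutrophils. It was 2.39-fold higher (2.27 to 2.53) at 7 than at 3 dpi there, and higher by less than 2-fold in all gated cells. In cells with 0 granule UMIs it was at 11901, 14913, 12999 and 11918 CPM, so that 7 dpi was not above the other libraries there. *Cxcl3* (chr5:90786103-90789600, + strand), a related chemokine, was at 23.3, 27.5, 19.2 and 467 CPM and 24.4-fold higher (14.8 to 41.9) at 7 than at 3 dpi. In all gated cells it also passed 2-fold at this step, at a smaller ratio. In cells with 0 granule UMIs *Cxcl3* was at 52.5, 92.7, 74.9 and 552 CPM (431 to 696 at 7 dpi). Unlike *Il1b* and *Cxcl2*, it was higher at 7 dpi within these cells too.

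The chemokines *Ccl3* and *Ccl4*, which attract monocytes and lymphocytes, were also highest at 7 dpi. *Ccl3* (chr11:83647844-83649355, - strand) was at 153, 106, 102 and 980 CPM, 9.64-fold higher (7.53 to 12.4) at 7 than at 3 dpi. *Ccl4* (chr11:83662584-83664683, + strand) was at 13.3, 115, 209 and 1284 CPM, 6.14-fold higher (5.08 to 7.43). These levels are of the low-stroma set, and in all gated cells both genes also passed 2-fold at this step, at smaller ratios. In the cells with 0 granule UMIs they were at 338, 298, 455 and 1197 CPM and at 22.5, 258, 190 and 1601 CPM, so the 7 dpi library stood above the others within these cells as well. After thinning, *Ccl3* had a UMI in 9.21, 7.80, 5.38 and 29.9% of low-stroma neutrophils and in 8.16, 10.6, 10.4 and 9.44% of NK and T cells, which make CCL3 themselves (12.7, 18.6, 10.1 and 35.5% against 11.9, 19.6, 18.4 and 14.6% without thinning). Without the richest cell at 7 dpi *Ccl3* was at 873, *Ccl4* at 1047 and *Cxcl3* at 398 CPM there, still above the other libraries. Markers of T and NK cells summed to 66.7, 88.7, 122 and 558 CPM in low-stroma neutrophils, with *Gzma* the highest at 7 dpi (293 CPM), and to 132, 372, 325 and 219 CPM in the cells outside the gate. *Ccl5*, a chemokine of lymphocytes among others, was at 0, 18.8, 51.8 and 879 CPM, but 69.9% of its 7 dpi UMIs came from 1 cell. The part of lymphocyte or macrophage RNA in the *Ccl3* and *Ccl4* values was not tested.

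Promoter windows of the CXC chemokines are shown because *Cxcl1*, *Cxcl2* and *Cxcl3* lie near each other on chromosome 5 and all 3 were at least 2-fold higher at 7 than at 3 dpi in the low-stroma set. The NF-kB motif, GGGA followed by any base and TTTCC, was searched on both strands. It occurred in 0.411% of all promoters and in 0 of 10 secondary granule promoters. Of the 18 cytokine genes, 13 had a promoter found, and 4 of these genes had a match (*Csf1*, *Cxcl1*, *Cxcl2* and *Cxcl3*). The C/EBP motif occurred in 1 of the 13 genes, *Ptgs2*. Windows are from RefSeq on GRCm38.p6, + strand, 5′ to 3′, with the match in capitals.
Cxcl1, chr5:90891095-90891244: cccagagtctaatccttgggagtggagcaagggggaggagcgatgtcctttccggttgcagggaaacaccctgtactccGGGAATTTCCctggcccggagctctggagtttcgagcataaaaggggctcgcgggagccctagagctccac
Cxcl2, chr5:90903749-90903898: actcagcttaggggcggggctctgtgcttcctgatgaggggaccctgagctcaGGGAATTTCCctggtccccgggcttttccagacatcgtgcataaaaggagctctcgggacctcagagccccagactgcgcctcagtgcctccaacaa
Cxcl3, chr5:90785951-90786100: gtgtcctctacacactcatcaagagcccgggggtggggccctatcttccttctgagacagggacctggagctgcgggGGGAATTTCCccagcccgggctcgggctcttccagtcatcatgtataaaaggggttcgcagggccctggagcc

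All 3 CXC windows hold the same 10 letters GGGAATTTCC. *Cxcl1*, an attractant of neutrophils, was at 50, 59.5, 45.1 and 113 CPM in low-stroma neutrophils, 2-fold or more higher at 7 than at 3 dpi. Its level in all gated cells was 298, 151, 327 and 288 CPM, with no such difference.

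**Figure D4:**
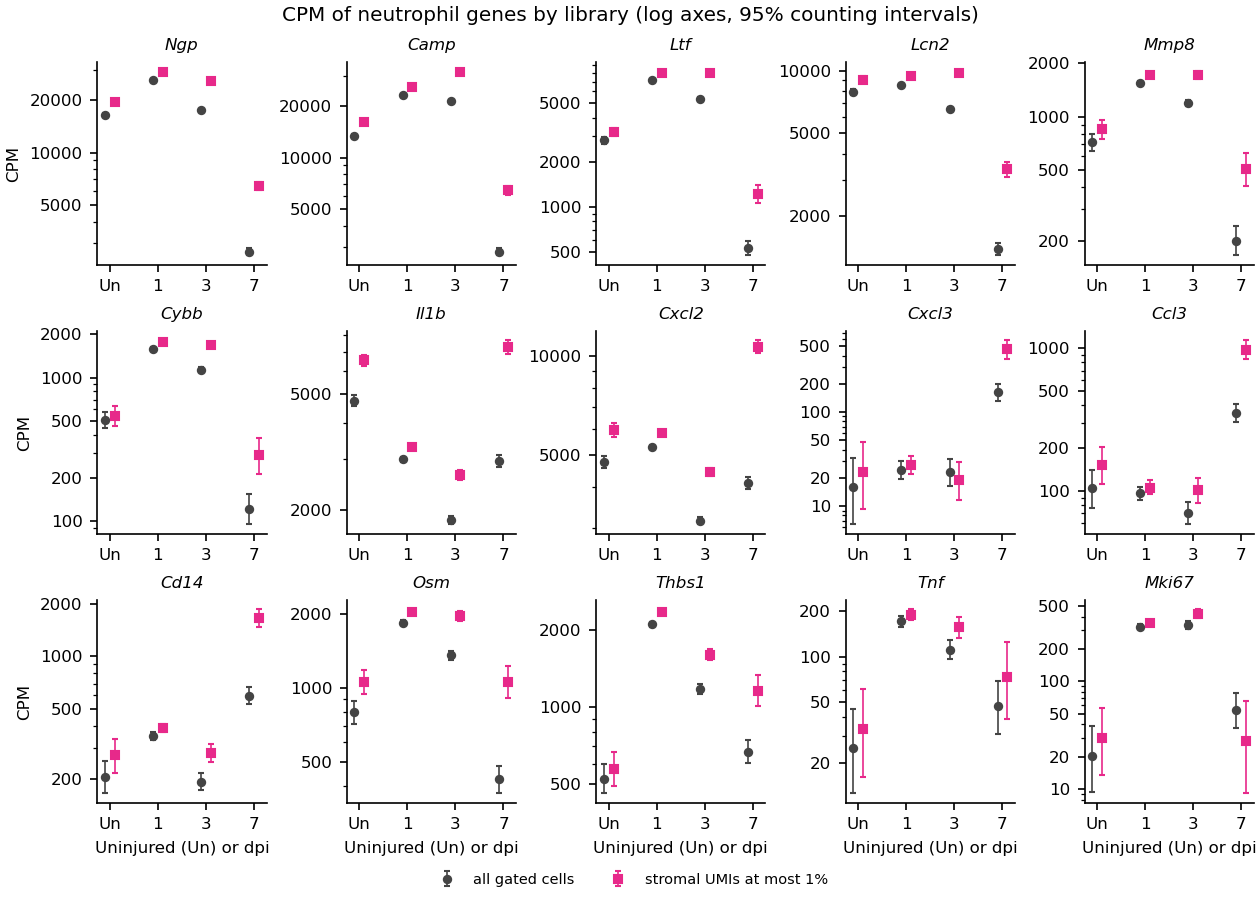
CPM on log axes of 15 genes by library in all gated neutrophils (dark circles) and low-stroma neutrophils (pink squares), with Poisson 95% intervals that cover counting error only. *Ngp*, *Camp*, *Ltf* and *Cybb* are lowest at 7 dpi in both sets, and *Cxcl3*, *Ccl3* and *Cd14* are highest there.

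Receptors that guide neutrophils or sense microbes were compared next. *Cxcr2*, a gate gene, was at 517, 581, 463 and 755 CPM in low-stroma neutrophils. Of 14 chemoattractant and growth factor receptors, 12 were compared between 3 and 7 dpi in the low-stroma set and 4 were at least 2-fold higher, namely *Ptafr*, *Csf2rb*, *Il1r2* and *Tnfrsf1b*, against 8.42% of all genes. *Il1r2*, a decoy receptor for interleukin 1, was at 273, 265, 246 and 704 CPM, highest at 7 dpi. Within cells with 0 granule UMIs it was at 488 (376 to 622), 597 (536 to 662), 651 (536 to 782) and 809 CPM (661 to 980), and there the intervals of 3 and 7 dpi overlapped. *Fpr2*, a formyl peptide receptor, was at 130, 314, 250 and 146 CPM and 2.41-fold higher (1.75 to 3.42) at 1 dpi than in Uninjured. In all gated cells 0 of 12 receptors were at least 2-fold higher at 7 dpi and 3 (*Fpr1*, *Fpr2* and *Ltb4r1*) were lower, against 8.00% and 13% of all genes.

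Among 18 pattern recognition, Fc and C-type lectin receptors, 3 of 16 compared were at least 2-fold higher at 1 dpi than in Uninjured in the low-stroma set, a smaller share than the 26.8% of all genes. *Tlr2*, a receptor for bacterial lipopeptides, was 1 of them, at 70, 248, 150 and 124 CPM. *Cd14*, the lipopolysaccharide co-receptor, was at 273, 390, 281 and 1656 CPM and was the 1 of 14 compared that was higher at 7 than at 3 dpi, 5.89-fold (5.00 to 6.95), a share of the list near the 8.42% of all genes. Within cells with 0 granule UMIs *Cd14* was at 450, 629, 645 and 1920 CPM, so 7 dpi was highest there too.

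The NADPH oxidase genes, 6 in the list, summed to 4457, 5917, 5856 and 3407 CPM in low-stroma neutrophils. *Cybb* was at 540, 1769, 1697 and 287 CPM, 3.28-fold higher (2.80 to 3.85) at 1 dpi than in Uninjured and 5.91-fold lower (4.47 to 7.97) at 7 than at 3 dpi. *Ncf1*, a cytosolic subunit, was at 443, 762, 678 and 248 CPM. Of the 6, *Cybb* alone was at least 2-fold higher at 1 dpi, against 26.8% of all genes, and *Cybb* and *Ncf1* were at least 2-fold lower at 7 dpi, against 18.5% of all genes. Of the tertiary granule and secretory vesicle genes, 4 of 7 compared were at least 2-fold lower at 7 than at 3 dpi (*Mmp25*, *Cd55*, *Itgam* and *Padi4*) in the low-stroma set, against 18.5% of all genes. *Itgam*, the integrin subunit CD11b, was at 440, 781, 731 and 327 CPM, and *Mmp9*, gelatinase B, at 1293, 1686, 1495 and 941 CPM without passing 2-fold at any step in this set. With all gated cells kept, 6 of 7 were lower, *Mmp9* among them, against 13% of all genes.

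Some feedback genes of NF-kB were higher at 1 dpi. The 15 genes summed to 2980, 4724, 3775 and 3762 CPM in low-stroma neutrophils and 6 of 13 compared were at least 2-fold higher at 1 dpi than in Uninjured (*Nfkbiz*, *Nfkbid*, *Nfkbie*, *Nfkb2*, *Tnfaip3* and *Birc3*), with the sum 1.59-fold higher (1.48 to 1.70). The log2 ratio of the median gene at this step was 0.43, and the sum is to be read against it. The other 7 did not pass 2-fold, and 26.8% of all genes passed it upward at this step. *Nfkbiz*, an inducible nuclear inhibitor of this family, was at 597, 1709, 1296 and 659 CPM. In the cells with 0 granule UMIs *Nfkbiz* was at 833, 3490, 2546 and 707 CPM, with 1 and 3 dpi far above the other libraries. *Tnfaip3*, which encodes the ubiquitin-editing enzyme A20, was at 230, 628, 455 and 253 CPM.

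Signals that neutrophils may send to mesenchymal cells were represented by ligands that the study named from these same samples, so they are not independent evidence of a direction. *Thbs1*, which encodes the matrix glycoprotein thrombospondin 1, was at 573, 2357, 1603 and 1160 CPM in low-stroma neutrophils, 4.11-fold higher (3.53 to 4.81) at 1 dpi. *Tnf*, the gene of tumour necrosis factor, was at 33.3, 189, 156 and 73.2 CPM, 5.67-fold higher (3.06 to 11.9) at 1 dpi. *Osm*, the gene of the cytokine oncostatin M, was at 1053, 2030, 1957 and 1059 CPM, 1.93-fold higher (1.72 to 2.16). All 3 had their highest level at 1 dpi.

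These ligands were also high at 1 and 3 dpi within the cells with 0 granule UMIs. There *Thbs1* was at 368, 3672, 2177 and 1189 CPM, *Osm* at 1358, 3018, 3289 and 1042 CPM and *Tnf* at 52.5, 314, 213 and 93.3 CPM. *Ncam1*, a cell adhesion molecule, was at 46.7, 113, 141 and 16.9 CPM in low-stroma neutrophils. The semaphorin genes *Sema4a* and *Sema4d* were at 110, 121, 78.6 and 113 CPM and at 60, 83.5, 53.7 and 135 CPM. After thinning, a *Tnf* UMI was found in 3.95, 16.8, 10.4 and 7.79% of low-stroma neutrophils and in 6.45, 5.82, 9.70 and 6.30% of NK and T cells, which also make TNF. The shares were 8.86, 40.5, 21.8 and 7.53% against 15.5, 21.4, 22.6 and 12.3% without thinning.

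Neutrophils were set beside other gated cells of the same libraries. *Il1b* in classical monocytes, gated on *Ly6c2* and *Ccr2*, was at 1580, 1228, 1098 and 955 CPM and in *C1q* macrophages at 1286, 969, 1052 and 461 CPM, below the low-stroma neutrophils in every library. *Osm* was likewise higher in neutrophils, against 190, 414, 235 and 116 CPM in monocytes and 187, 409, 245 and 66.5 CPM in macrophages. *Tnf* was higher in monocytes in Uninjured and at 1 dpi, at 86.3, 346, 118 and 64.5 CPM, and higher in macrophages in Uninjured and at 1 and 3 dpi, at 128, 524, 169 and 66.5 CPM. This order is against the low-stroma set. All gated neutrophils had 186 *Tnf* UMIs of 1669370 at 3 dpi and 26 of 549222 at 7 dpi, levels below both other cell types. *Ccl3* was at 380, 561, 313 and 444 CPM in monocytes and 581, 764, 384 and 413 CPM in macrophages, above the low-stroma neutrophils up to 3 dpi and below them at 7 dpi. The 7 dpi order turned with all gated neutrophils kept, which held 193 *Ccl3* UMIs of 549222 there, a level below both. With 1 library per time point these orders had no test.

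As a share of all UMIs of a library, neutrophils gave 18.8, 29.7, 13.9 and 22.9% of *Il1b*, 25.3, 38.1, 33.6 and 22.9% of *Osm* and 2.09, 24.4, 5.72 and 0.81% of *Thbs1*. They gave 1.29, 5.66, 5.75 and 2.90% of *Tnf* and 1.36, 2.02, 1.57 and 4.39% of *Ccl3*. For *Mmp8* the share was 84.9, 89.1, 88.8 and 67.1%, and for *Mmp9* it was 82.5, 91.6, 72.4 and 15.7%. *Il1b* and *Osm* UMIs lay in neutrophils far more often than the share of neutrophils among barcodes, and most *Mmp9* UMIs lay outside the gate at 7 dpi alone.

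**Figure D5:**
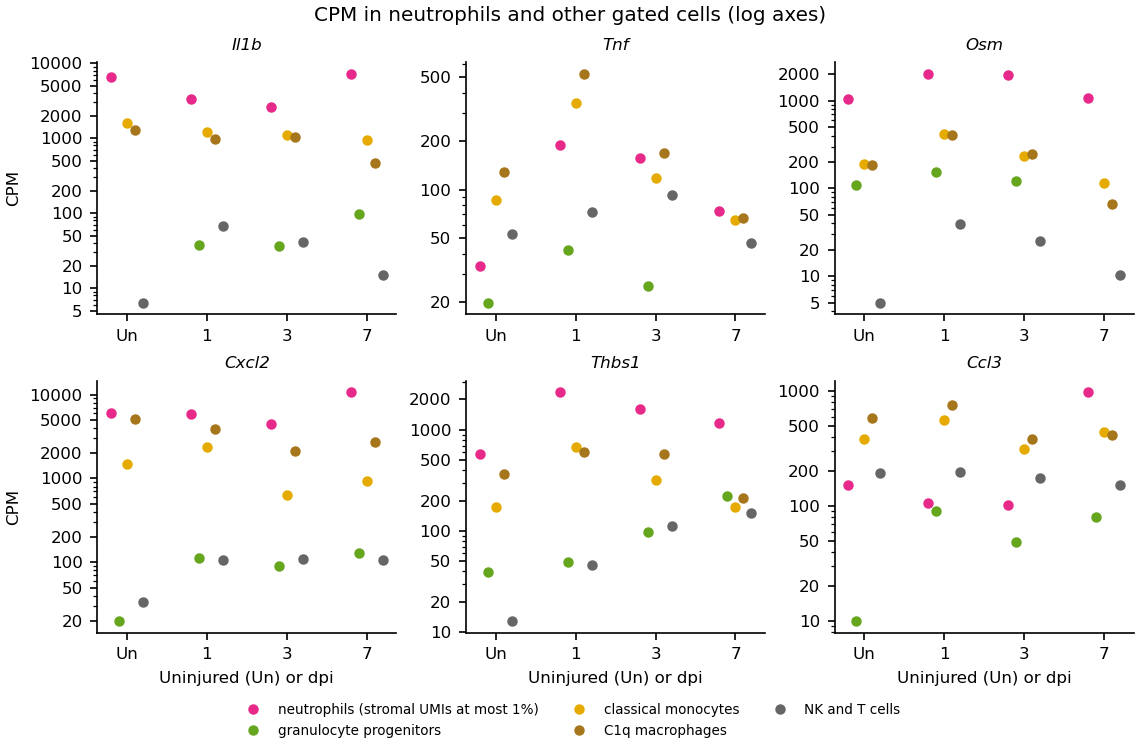
CPM on log axes of 6 cytokine and ligand genes in low-stroma neutrophils, granulocyte progenitors, classical monocytes, *C1q* macrophages and NK and T cells by library (values of 0 are not drawn). *Il1b* and *Osm* are higher in neutrophils than in monocytes and macrophages in each library, and *Tnf* is not.

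Between 1 and 3 dpi few genes passed 2-fold in the low-stroma set, 2.01% of 6267 higher and 1.29% lower. In all gated cells 12.4% of 7756 genes were at least 2-fold higher and 1.52% lower, with *Acta2*, a smooth muscle actin gene, and *Olfml2b* among the 8 largest increases under the limits for named genes. None of the 10 secondary granule genes passed 2-fold in either set. Their sum at 3 dpi was 0.788 times that at 1 dpi in all gated cells, 1.05 times in the low-stroma set and 1.90 times when cells with UMIs of other types were left out. *Ptgs2*, the inducible cyclooxygenase, was at 313, 545, 259 and 631 CPM in the low-stroma set and 2.11-fold lower (1.85 to 2.40) at 3 than at 1 dpi. It was 1 of the 8 largest decreases there among the genes with enough UMIs and a level at least that of the other cells. Under the same limits the 8 largest increases held *Rrm2*, a subunit of ribonucleotide reductase, which went from 78.3 to 132 CPM and did not pass 2-fold.

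Of the genes named by size of the ratio, 3 are described here that were lower at 1 dpi than in Uninjured and higher again at 7 dpi. They were picked for this pattern, and no count of the genes that share it is given. *Wfdc17*, a small secreted protein of myeloid cells, was at 620, 136, 144 and 1369 CPM in low-stroma neutrophils, 4.56-fold lower (3.82 to 5.44) at 1 dpi and 9.52-fold higher (7.73 to 11.7) at 7 than at 3 dpi. *Ifitm1*, an interferon-induced membrane protein, was at 633, 228, 229 and 1712 CPM. *Atf3*, a transcription factor of the stress response, was at 2044, 263, 262 and 1712 CPM, 7.78-fold lower (6.99 to 8.65) at 1 dpi. By this choice the 3 genes had low values at 1 and 3 dpi and high values in Uninjured and at 7 dpi.

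*Ifitm1* and *Atf3* were higher in the cells with 0 granule UMIs, where *Ifitm1* was at 1148, 885, 916 and 1912 CPM and *Atf3* at 4405, 968, 766 and 2013 CPM, against at most 431 and 398 CPM in the cells with 5 or more. *Fth1*, the heavy chain of the iron store ferritin, was at 8658, 5244, 4753 and 14908 CPM and *Ftl1*, the light chain, at 4310, 1593, 1753 and 5300 CPM in low-stroma neutrophils. The antioxidant and iron list summed to 16618, 10482, 10188 and 23981 CPM, 2.35-fold higher (2.27 to 2.44) at 7 than at 3 dpi with 4 of 9 genes compared at least 2-fold higher (*Fth1*, *Ftl1*, *Prdx1* and *Sod2*), against 8.42% of all genes. The sum in all gated cells was 1.31-fold higher, and no gene passed 2-fold.

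Interferon-stimulated genes, 30 in the list, had members that moved apart. In low-stroma neutrophils 8 of 23 compared were at least 2-fold higher at 1 dpi than in Uninjured and 2 were lower, against 26.8% and 3.14% of all genes, a share of higher genes near that background. *Irf7*, a transcription factor of the interferon response, was at 36.7, 86.1, 42.2 and 62.0 CPM, highest at 1 dpi. *Isg15*, a ubiquitin-like protein, was at 227, 113, 73.8 and 355 CPM, lowest at 3 dpi and highest at 7 dpi. From 3 to 7 dpi 5 of 15 were at least 2-fold higher in the low-stroma set, against 8.42% of all genes. In all gated cells 1 of 20 was higher and 3 were lower, near the 8.00% and 13% of all genes.

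Among granulocyte transcription factors, *Cebpe* had another order of libraries than *Cebpb* and *Spi1*. No count over a list of such factors is given here. *Cebpe*, which is needed for secondary granules, was at 150, 286, 319 and 45.1 CPM in low-stroma neutrophils and 7.09-fold lower at 7 than at 3 dpi. This ratio rests on few UMIs at 7 dpi, with 7 in the 6 cells with 5 or more granule UMIs and 0 in the 69 cells with 0. *Cebpb*, a C/EBP factor of activated and emergency granulopoiesis, was at 2967, 1628, 1214 and 4489 CPM and 3.70-fold higher at 7 dpi. *Spi1*, the myeloid factor PU.1, was at 753, 392, 318 and 693 CPM. *Cebpe* was thus high at 1 and 3 dpi, where *Cebpb* and *Spi1* were low.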

How the data were processed

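Single-cell RNA sequencing (10x) had been done on 4 libraries of tibial muscle, 1 per time point. The authors aligned the reads with STAR in Cell Ranger 5.0.0 and deposited raw UMI counts per gene and barcode, and the submitters' processing notes list mm10 and Seurat 3.1.1. A step that down-sampled reads is named in the methods, without saying if the deposited files come before or after it. The libraries held 112317902, 91146335, 116346301 and 129007669 UMIs in 12031, 11722, 15160 and 23752 barcodes.

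Here the gate was applied to the deposited counts with the limit of 10% mitochondrial UMIs from the methods. Counts of neutrophils were summed per library, with identifiers that share a symbol added together, and divided by their total (CPM). Genes with at least 50 UMIs over both libraries were compared, with a 2-fold limit and no test. Intervals were exact at 95%: Poisson for levels, Clopper-Pearson for shares and conditional binomial for ratios. They cover counting error only. Cells were thinned to 1000 UMIs (seed 1) for shares of cells with a transcript and for granule bins. DoubletFinder, which the methods name, was not used here. As an alternative, the 7.5% of barcodes with the highest Scrublet score were left out. Other alternatives were a minimum of 20 or 200 UMIs, centring, means over cells, other gates and leaving out cells with UMIs of other types, and, added after seeing the data, a limit of 1% or 2% stromal UMIs and leaving out the richest cell. Tested on simulated data, the 2-fold limit found 95.8, 100 and 97.4% of changed genes for the successive comparisons. It called 3.77, 0.371 and 0.983% of unchanged ones, among 6635, 7743 and 5583 genes. These shares describe the simulated data only. How the limit performs on the 4 libraries, with 1 library per time point, was not tested.

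Named genes were the members of the lists, the 10 most abundant genes and the 8 largest ratios in each direction between successive time points (at least 100 UMIs in the higher and 10 in the lower library, and a level at least that of the other cells). Mitochondrial, ribosomal, unnamed and gate genes were kept out of the ratios. Results on some genes are not reported here. The members and lists were chosen with earlier results of these data known. Gene positions are from GENCODE M21 on GRCm38, in which 99.6% of 32285 identifiers were found, and promoters from RefSeq. Python 3.11.15, numpy 2.4.6, scipy 1.17.1, pandas 2.3.3, scanpy 1.11.5 and matplotlib 3.10.9 were used.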

Additional observations from a re-analysis of the deposited data

How the results depend on the processing

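No paired analysis was possible because each group is 1 library. Of 148 alternative values of main results, 64 stayed and 84 moved, where a share or ratio stayed if it lay within the 95% counting interval of the reported value and a count of genes stayed if it lay within 1.5 times of it. The share of neutrophils was 0.564% in Uninjured when barcodes beyond 2 SD of the mean depth or gene number were left out. With cells holding UMIs of other types left out, the shares were 0.380, 1.70, 0.857 and 0.178% in order of time. With the gate on thinned cells they were 3.97, 1.92 and 0.385% at 1, 3 and 7 dpi, with at least 50 *S100a8* and *S100a9* UMIs 2.17 and 0.443% at 3 and 7 dpi, and with at most 1% or 2% stromal UMIs 2.17 and 2.23% at 3 dpi and 0.404 and 0.430% at 7 dpi. The share of cells with 0 granule UMIs at 3 dpi was 37.5% when thinned to 500 UMIs.

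Counts of genes past 2-fold are given as higher and lower at 1 dpi against Uninjured (1437 and 399 as reported), 3 against 1 dpi (958 and 118) and 7 against 3 dpi (448 and 728). With a minimum of 200 UMIs they were 446 and 135, 329 and 28, and 133 and 215. With a minimum of 20 UMIs, 760 were lower at the first step, 1593 and 292 passed at the second and 962 and 1200 at the third. With other types left out they were 373 and 175, 68 and 59, and 72 and 110. Centred on the median gene, 920 and 810 passed at the first step and 190 were lower at the second. Without *S100a8* and *S100a9* in the denominator 184 were lower at the second. As means over cells, 609 were higher at the second and 865 at the third. With at most 1% stromal UMIs, 176 were lower at the first step, 126 higher at the second and 264 at the third, and with 2% 196, 102 and 274.

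The ratio of the secondary granule sum at 1 dpi (1.56) was 1.52 without the *S100* genes, 1.26 centred, 1.90 as means over cells, 1.39 without other types, 1.46 without Scrublet's cells and 1.47 with at most 1% or 2% stromal UMIs. At 3 dpi (0.788) these were 0.735, 0.732, 1.04, 1.90, 0.763, 1.05 and 1.05, and 0.855 with 50 *S100* UMIs. At 7 dpi (0.166) it was 0.157, 0.144 as means, 0.0701 without other types, 0.184 with 50 *S100* UMIs, and 0.257 and 0.278 with at most 1% and 2% stromal UMIs. The inflammatory ratio at 1 dpi (1.03) was 0.831 centred, 0.874 as means, 1.43 without other types, 1.07 with 50 *S100* UMIs, and 0.872 and 0.921 with low stroma. At 3 dpi (0.659) it was 0.615 without the *S100* genes, 0.612 centred, 0.847, 0.776, 0.641, 0.808 and 0.836. At 7 dpi (1.23) it was 1.17 without the *S100* genes or Scrublet's cells, 1.29 as means, 1.35 with 50 *S100* UMIs, and 2.24 and 2.17 with low stroma.

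Of the ratios under 2-fold given above, the secondary granule sum at 3 dpi rose above 1 as means over cells, without other types and with low stroma, and the inflammatory sum at 1 dpi fell below 1 when centred, as means and with low stroma. Ratios of at least 2-fold that changed direction without other types were, at 1 dpi, the cell cycle sum (0.932), *Birc5* (0.222), *Chil3* (0.953), *Hist1h1e* (0.283), *Hist1h2ap* (0.444), *Mki67* (0.444) and *Stmn1* (0.666), and *Reck* at 3 dpi (1.85). Those of *Mki67* and *Stmn1* rest on few Uninjured UMIs. *Sox9* at 1 dpi was 0.863 without Scrublet's cells and 0.913 with at most 2% stromal UMIs, and *Cmah* at 7 dpi was 1.17 and 1.22 with at most 1% and 2%. The cause was not tested. Leaving out other types kept shallower cells, with a median of 1959, 2618, 1439 and 1169 UMIs. At 1 dpi 310 of 533 neutrophils met the *Ly6c2* part of that limit, and whether those UMIs came from other cells was not tested. Depth limits rare transcripts most at 7 dpi, where 3 UMIs are the floor in 177555.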

Other observations

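Other gene groups in low-stroma neutrophils gave further values, in the order Uninjured, 1, 3 and 7 dpi. A list of 16 genes described for neutrophils settled in tissue summed to 1644, 1611, 1661 and 4967 CPM, 2.99-fold higher (95% interval 2.76 to 3.25, counting error only) at 7 than at 3 dpi, with 6 of 11 genes compared at least 2-fold higher and 1 lower, against 8.42% and 18.5% of all genes. Its sum in all gated cells was 1933, 1799, 2140 and 3496 CPM. *Csf1*, the macrophage growth factor, was at 100, 42.7, 37.4 and 175 CPM in the low-stroma set, and *Gadd45b*, a stress-induced gene, at 327, 227, 210 and 867 CPM. Both were highest at 7 dpi. Lysosomal genes summed to 1934, 2221, 1873 and 3098 CPM, with *Ctsb*, the protease cathepsin B, at 160, 193, 132 and 338 CPM.

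Genes of survival and cell death summed to 3267, 2716, 2393 and 4562 CPM, with *Nlrp3*, an inflammasome sensor, at 303, 290, 218 and 642 CPM and *Pmaip1*, a BH3-only gene, at 73.3, 35.3, 41.2 and 259 CPM. Eicosanoid enzymes summed to 1640, 2179, 1850 and 1667 CPM, and *Lta4h*, which makes leukotriene B4, was at 93.3, 370, 348 and 90.1 CPM. Glycolysis genes summed to 4160, 5425, 5476 and 4844 CPM and hypoxia response genes to 563, 844, 795 and 1003 CPM. Immediate early genes summed to 41861, 33149, 30898 and 37999 CPM. Ribosomal protein genes summed to 65443, 44179, 65461 and 68745 CPM in the low-stroma set and to 81724, 54821, 107360 and 149601 CPM in all gated cells, a difference between the sets that was widest at 7 dpi.

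Markers of other cell types in low-stroma neutrophils were as follows. Primary granule genes stood at 23.3, 70.5, 134 and 33.8 CPM and monocyte markers at 1927, 4514, 4995 and 2101 CPM (*Chil3* highest). Dendritic cell markers stood at 1487, 592, 1216 and 248 CPM, led by *Cd74*, of which 1 cell gave 94.4% of the Uninjured UMIs, and B cell markers at 93.3, 134, 78.6 and 101 CPM. Muscle markers stood at 26.7, 4.21, 139 and 28.2 CPM and endothelial markers at 3.33, 16.8, 6.71 and 665 CPM, of which *Egfl7* gave 451 CPM at 7 dpi, all from 1 cell. Eosinophil markers stood at 46.7, 32.7, 29.7 and 16.9 CPM, mast cell and basophil markers at 33.3, 20.7, 8.63 and 11.3 CPM and platelet markers at 6.67, 9.38, 5.75 and 5.63 CPM. Their part in the results was not tested.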
